A study of Mus musculus with 9 samples.

Results

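Enteroendocrine cells are the hormone-secreting cells of the gut epithelium, and a small set of transcription factors takes a crypt progenitor into that lineage. The 9 factors described here, Neurog3, Neurod1, Insm1, Pax4, Nkx2-2, Rfx6, Isl1, Pax6 and Fev, were chosen by gene symbol, with no threshold on their values. They are 9 of the 55341 genes in the deposited count tables, and all 9 were among the 16250 genes with enough reads to test. In crypts of Pcgf6 knockout mice, which kept part of the Pcgf6 reads, 1 of the 9 passed the test in 1 of the 2 Cre lines, Nkx2-2, which had no read in either Villin-CreERT2 knockout library. In that line 6.21% of all tested genes passed, and in the AhCre line 0.00615% did. The Nkx2-2 call was lost with any 1 library left out and under other count models. The other 8 did not pass in either line.

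Enteroendocrine cells arise from the same dividing crypt progenitors as absorptive, goblet, Paneth and tuft cells. A progenitor that escapes Notch signalling and turns on Atoh1 enters the secretory branch, and a short pulse of Neurog3 then commits it to the endocrine lineage. Neurog3 switches on the factors that follow, which exclude other fates, start the secretory machinery and choose among the hormones, and many of the same factors build the endocrine pancreas. PCGF6 is the subunit that defines the variant Polycomb complex PRC1.6, a chromatin repressor that also holds the DNA-binding proteins MGA, MAX and E2F6.

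The study profiled polyadenylated RNA from small-intestinal crypts of C57BL/6 mice with the Smart-seq2 method, starting from 2 ng of RNA a library. Pcgf6 was deleted conditionally with 1 of 2 Cre drivers, and each driver had its own WT controls. In the AhCre line, Cre is under a promoter induced by beta-naphthoflavone (BNF), and there were 2 WT and 2 knockout (KO) libraries from BNF-treated mice. In the Villin-CreERT2 line, Cre is under the epithelial Villin promoter and is activated by tamoxifen, and there were 3 WT and 2 KO libraries from tamoxifen-treated mice. The mice were males 8 to 12 weeks old. The sample titles give the crypts as taken at day 15 after induction in all 4 groups, whereas the design text and a second name of each sample give day 7, and part of the labels of the Villin line name BNF, so neither the time nor, for that line, every label could be settled. The labels do not say whether replicates came from separate mice, so each p-value measures only the spread between these libraries, which may be technical.

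The AhCre libraries held between 9263993 and 12377921 counts over 33791 to 38835 genes, and the Villin libraries held between 6455098 and 8339149 counts over 22058 to 29750 genes. Driver, inducing agent and library depth therefore cannot be told apart, and each knockout was compared with its own controls. Levels are in CPM, read counts scaled to a common effective library size. In these units 3 counts, the limit that a count of 0 allows, came to between 0.194 and 0.615 CPM a library. Pcgf6 itself stood at 14.1 and 10.1 CPM in AhCre WT and at 7.20 and 5.90 CPM in AhCre KO. Villin crypts had Pcgf6 at 10.8, 12.7 and 9.44 CPM in WT and at 3.07 and 2.47 CPM in KO. In the Villin knockout Pcgf6 fell (log2 fold change -1.99 with SE 0.42, edgeR adjusted p = 0.022). It did not pass in the AhCre line (-0.89 with SE 0.40, adjusted p = 1.0), where the WT and KO libraries still did not overlap. The crypt epithelial gene Epcam was between 1236.4 and 3262.7 CPM in the 4 group means, and the granule protein gene Chga, the classical enteroendocrine marker, between 67.7 and 104.3 CPM, so transcripts of the lineage were detected in all 4 groups.

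Of the 9 genes, 7 had a promoter in the RefSeq set for GRCm38.p6, with 8 windows in all, and Pax4 and Insm1 had none. The 250 bases upstream of each start were searched on both strands for CACGTG, the palindromic E-box bound by MGA and MAX, for CATCTG or its reverse CAGATG, the E-box form used by NEUROG3 and NEUROD1, and for TTCCCGC, an E2F-type site. Among the windows of these genes, those of Nkx2-2 alone held any of the 3. The stretches shown are those of the gene that passed the test, Nkx2-2, of the gene that starts the lineage, Neurog3, and of Rfx6, the gene with the largest difference in the AhCre line. Capitals mark the CATCTG and CACGTG matches, and each runs 5′ to 3′ on the strand of its gene.
Nkx2-2: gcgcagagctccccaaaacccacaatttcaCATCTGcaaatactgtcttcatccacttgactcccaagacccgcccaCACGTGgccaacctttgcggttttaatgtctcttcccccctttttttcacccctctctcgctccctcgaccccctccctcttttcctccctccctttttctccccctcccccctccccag
Neurog3: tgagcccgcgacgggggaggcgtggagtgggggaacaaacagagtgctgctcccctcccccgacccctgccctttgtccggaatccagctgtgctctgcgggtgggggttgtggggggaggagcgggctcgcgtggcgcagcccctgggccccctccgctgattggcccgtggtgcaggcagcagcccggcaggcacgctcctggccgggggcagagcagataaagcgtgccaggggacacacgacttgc
Rfx6: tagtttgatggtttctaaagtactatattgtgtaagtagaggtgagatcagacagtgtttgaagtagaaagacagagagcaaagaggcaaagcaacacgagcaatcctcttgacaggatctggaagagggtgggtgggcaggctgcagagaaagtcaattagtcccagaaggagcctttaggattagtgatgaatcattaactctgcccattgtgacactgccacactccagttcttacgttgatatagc

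The Nkx2-2 stretch is chr2:147186456-147186652 on the minus strand, 197 bases long, and the 53 exonic bases nearer to the start are not shown. The annotated gene runs from 147177546 to 147194243 on chromosome 2, so this RefSeq start lies inside it. The first bases of its 2 matches lie 173 bases (CACGTG) and 220 bases (CATCTG) upstream of that start. Over all 32851 windows of the same length, 6.02% held CACGTG, 14.4% held CATCTG or CAGATG, and 3.82% held TTCCCGC. The Neurog3 stretch is chr10:62132840-62133089 on the plus strand, and the Rfx6 stretch is chr10:51685268-51685517 on the plus strand, both of 250 bases. Rfx6 is annotated from 51677756 to 51730432 on chromosome 10, and its RefSeq start likewise lies inside the gene. Neurog3 had 18 CpG dinucleotides in its window and Rfx6 had 2, against a median of 6 over all windows. Neurod1 and Fev had 22 each, Isl1 had 33, both Pax6 windows had 15 and Nkx2-2 had 8. A match describes letters only, and binding was not measured.

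Every member was a low-abundance transcript. Levels were compared between genes per kilobase (kb) of exon, because Pax6 has 11.69 kb of annotated exon and Pax4 has 1.45 kb. In AhCre WT crypts the 2 basic helix-loop-helix factors led the order, with Neurod1 at 2.82 ± 0.0714 and Neurog3 at 2.77 ± 0.310 CPM per kb (SD, n = 2), which did not differ beyond their spread. Fev at 1.33 ± 0.136, Rfx6 at 1.32 ± 0.110 and Pax4 at 1.27 ± 0.0957 CPM per kb followed and could not be ordered among themselves. Isl1 came next at 0.863 ± 0.0483 CPM per kb and overlapped in its spread with Nkx2-2 at 0.683 ± 0.172 CPM per kb. Insm1 at 0.363 ± 0.105 and Pax6 at 0.250 ± 0.0374 CPM per kb were the lowest by this measure. The place of Pax6 rests on the exon length used, which joins all its annotated exons. In CPM its mean was 2.92, above Fev (2.16), Nkx2-2 (1.96), Pax4 (1.84) and Insm1 (1.13).

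The order in Villin WT crypts had the same 2 genes first, Neurod1 at 2.24 ± 0.789 and Neurog3 at 1.74 ± 0.613 CPM per kb (SD, n = 3). Pax4 at 0.823 ± 0.621, Isl1 at 0.700 ± 0.305 and Rfx6 at 0.620 ± 0.274 CPM per kb overlapped in their spread. Fev at 0.355 ± 0.273, Nkx2-2 at 0.269 ± 0.0584, Insm1 at 0.224 ± 0.209 and Pax6 at 0.176 ± 0.135 CPM per kb had the lowest means. The spread of Fev overlapped those of Rfx6 and Isl1, and that of Pax4 overlapped that of Neurog3. This is therefore an order of means only. In CPM the mean of Pax6 was 2.06, above Nkx2-2 (0.775), Insm1 (0.693) and Fev (0.573). All 9 fitted differences between the WT crypts of the lines were higher in AhCre, from 0.30 for Isl1 to 1.93 for Fev on the log2 scale, while 52.9% of all genes were lower there. Only 4 of the 9 had enough reads to be tested in a fit of the Villin libraries alone, so the filter favoured members that were higher in AhCre, and nothing is read from this count. None passed the test (7.58% of all tested genes did), and the smallest adjusted p was 0.134, for Fev. Fev and Nkx2-2 were the 2 with an unadjusted p under 0.05, which 29.3% of all genes had.

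**Figure D1:**
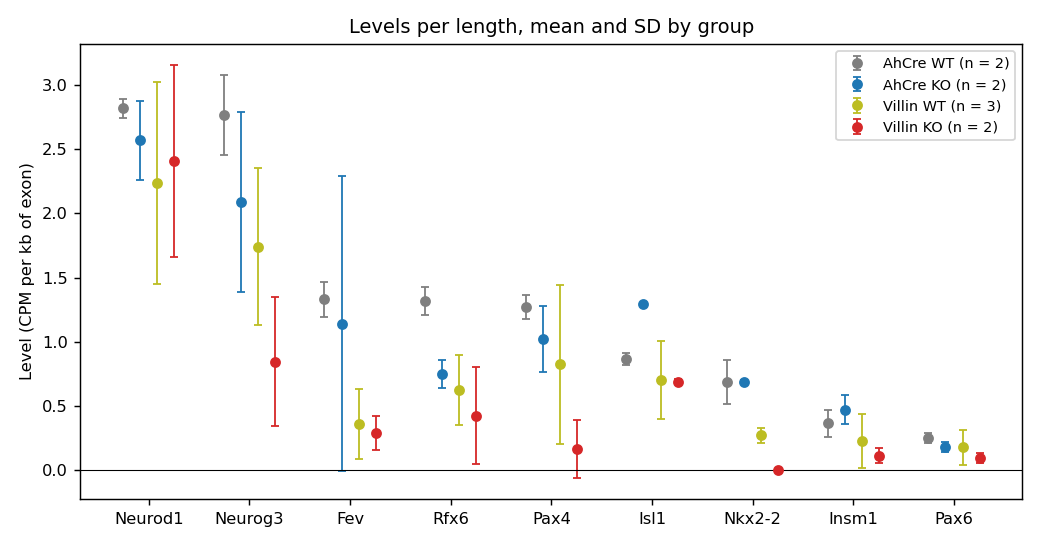
Level of each factor in CPM per kb of exon (vertical axis), ordered along the horizontal axis by its mean in AhCre WT crypts. Points are group means and bars are SD over 2 or 3 libraries; Neurod1 and Neurog3 lie highest in both WT groups, and Nkx2-2 is at 0 in Villin KO.

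Neurog3, the basic helix-loop-helix factor that commits a progenitor to the endocrine lineage, spans 1.67 kb at chr10:62133090-62134763 (GRCm38). It had 4.26 and 5.0 CPM in AhCre WT and 2.67 and 4.34 CPM in AhCre KO. Villin levels were 3.41, 3.59 and 1.73 CPM in WT and 0.819 and 2.01 CPM in KO, on 19, 28 and 9 counts against 4 and 13. One KO library in each line reached into the WT range, so the groups overlapped in both. The log2 fold change was -0.40 (SE 0.55, adjusted p = 1.0) in the AhCre line and -1.02 (SE 0.59, adjusted p = 0.294) in the Villin line, by edgeR's quasi-likelihood test with Benjamini-Hochberg adjustment over all 16250 genes, which gives every adjusted p here unless another tool is named. Of its exon bases, 16.3% overlap Fam241b on the other strand, which had 42.6 to 82.9 CPM over the libraries. Smart-seq2 libraries do not mark the strand, so reads from the overlap may have been counted for either gene or left out.

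Neurod1 follows Neurog3 directly and promotes the exit from the cell cycle and endocrine differentiation. It was the most abundant member by CPM, at 7.55 and 7.83 in AhCre WT and 7.60 and 6.42 in AhCre KO. Villin levels of Neurod1 were 6.11, 3.98 and 8.28 CPM in WT and 5.12 and 8.02 CPM in KO. No library of either knockout stood clearly apart from its controls. The log2 fold changes were -0.13 (95% interval -1.11 to 0.85) in the AhCre line and 0.12 (-0.82 to 1.06) in the Villin line, so a moderate difference either way is within the error of these libraries. Its exons share 13% of their bases with Cerkl and Gm26755.

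Insm1, a zinc-finger factor of early endocrine precursors, was among the lowest members. It had 21 and 12 counts in AhCre WT and 21 and 14 in AhCre KO. Villin counts were 8, 2 and 2 in WT and 1 and 3 in KO. The high value of Villin WT replicate 1 carried the WT mean there. Its log2 fold change was 0.36 (SE 0.70) in the AhCre line and -0.92 (SE 0.96, adjusted p = 0.575) in the Villin line, and without Villin WT replicate 1 the latter became 0.15.

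Pax4, a paired-domain repressor that acts early and favours serotonin- and somatostatin-type fates, had 1.74 and 1.94 CPM in AhCre WT and 1.21 and 1.73 CPM in AhCre KO. In Villin WT it had 12, 8 and 2 counts, or 2.16, 1.03 and 0.385 CPM, and in Villin KO it had 0 and 3 counts, or 0 and 0.463 CPM. Both AhCre KO libraries lay below both controls, by a small step, while the Villin groups overlapped through WT replicate 3. The log2 fold change was -0.32 (SE 0.72, adjusted p = 1.0) in the AhCre line and -2.15 (SE 1.01, 95% interval -4.34 to 0.04, adjusted p = 0.198) in the Villin line. Counts summed over the Villin groups, 22 against 3, gave a ratio of KO to WT of 0.223 (95% exact interval 0.0427 to 0.741). Intervals on summed counts cover counting error only, not the spread between libraries. Without Villin KO replicate 1 the fitted difference was -1.32, and without KO replicate 2, which leaves 1 KO library with no read, it was -6.52, so its size rests on which library is kept.

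Nkx2-2, a homeodomain factor needed for several hormone lineages of the gut, had 25 and 31 counts in AhCre WT and 24 and 23 in AhCre KO, or 1.61, 2.31, 1.94 and 1.99 CPM. Villin WT libraries had 4, 5 and 5 counts, or 0.719, 0.641 and 0.963 CPM, and both Villin KO libraries had 0. The AhCre groups overlapped, and the Villin groups did not. In the AhCre line the log2 fold change was 0.01 (95% interval -1.19 to 1.2). Nkx2-2 fell in the Villin line with an adjusted p of 0.0434, on 14 counts against 0. With 3 counts over the KO group taken as the limit, the WT level was 2.86-fold that limit. The ratio of KO to WT on summed counts had a 95% exact interval of 0 to 0.492, for counting error only. Among all tested genes 6.21% passed in that line, and 2.88% passed as lower.

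The Nkx2-2 call stood at its threshold. DESeq2 gave an adjusted p of 0.0623 and limma-voom gave 0.245. Leaving out any 1 of the 9 libraries, AhCre libraries included, gave adjusted p-values between 0.054 and 0.137. Nkx2-2 entered the test through its AhCre counts: in a fit of the Villin libraries alone it did not have enough reads to be tested. The difference between the lines in the KO effect on Nkx2-2 was itself tested and did not pass (adjusted p = 0.171), against 0.0738% of all genes that did. Of its exon bases, 9.67% are shared with the antisense gene Nkx2-2os, which had 8 counts in Villin WT and 5 in Villin KO.

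Rfx6, a winged-helix factor needed for hormone-producing cells of gut and pancreas, had 5.62 and 5.0 CPM in AhCre WT and 3.31 and 2.69 CPM in AhCre KO. Rfx6 levels in Villin crypts were 1.62, 3.72 and 2.12 CPM in WT and 0.615 and 2.78 CPM in KO. In the AhCre line both KO libraries lay below both controls, and in the Villin line 1 KO library lay below the WT range and the other inside it. The summed AhCre counts were 154 in WT and 72 in KO, a ratio of 0.565 (95% exact interval 0.421 to 0.753), and the fitted log2 fold change was -0.82 (SE 0.61, 95% interval -2.14 to 0.50, adjusted p = 1.0). A fit of the 4 AhCre libraries alone called 1046 genes in place of 1 and gave Rfx6 an adjusted p of 0.116. The Villin log2 fold change was -0.52 (SE 0.63, adjusted p = 0.634), and it turned to 0.15 without KO replicate 1.

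Isl1, a LIM-homeodomain factor of maturing hormone cells that is also made by neurons, was the one member with both AhCre KO libraries above their controls. It had 3.55 and 3.28 CPM in AhCre WT and 5.09 and 5.12 CPM in AhCre KO. Villin crypts had 3.95, 2.82 and 1.54 CPM in WT and 2.66 and 2.78 CPM in KO. The AhCre groups did not overlap, and both Villin KO libraries lay inside the WT range. The log2 fold change in the AhCre line was 0.58 (SE 0.50, 95% interval -0.51 to 1.67, adjusted p = 1.0), with a ratio of summed counts of 1.49 (95% exact interval 1.13 to 1.96). In the fit of the AhCre libraries alone its adjusted p was 0.249. The Villin value was -0.03 (SE 0.51), and it was 0.07 with the size factors of DESeq2, so its sign depended on the scaling.

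Pax6, a paired-box and homeodomain factor that drives hormone genes including proglucagon, had 3.23 and 2.61 CPM in AhCre WT and 2.43 and 1.73 CPM in AhCre KO. Pax6 levels in Villin crypts were 1.44, 0.898 and 3.85 CPM in WT and 1.43 and 0.771 CPM in KO. The AhCre groups did not overlap, with KO lower, and WT replicate 3 stood apart in the Villin line. The log2 fold changes were -0.49 (SE 0.64, adjusted p = 1.0) in the AhCre line and -0.89 (SE 0.72, adjusted p = 0.457) in the Villin line. Without Villin WT replicate 3 the Villin value was -0.09.

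Fev, an ETS-family factor best known from serotonin neurons and also found in endocrine precursors, had uneven AhCre KO replicates. It had 31 counts in each AhCre WT library and 39 and 6 counts in AhCre KO, or 2.00, 2.31, 3.15 and 0.520 CPM. Villin counts of Fev were 6, 2 and 2 in WT and 3 and 2 in KO. The pair of AhCre KO libraries lay on opposite sides of the controls. The log2 fold change in the AhCre line was -0.22 (SE 0.75), and it was -2.02 without KO replicate 1 and 0.55 without KO replicate 2. The Villin value was -0.30 (SE 1.07), from 10 counts against 5, with a 95% interval of -2.61 to 2.01.

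**Figure D2:**
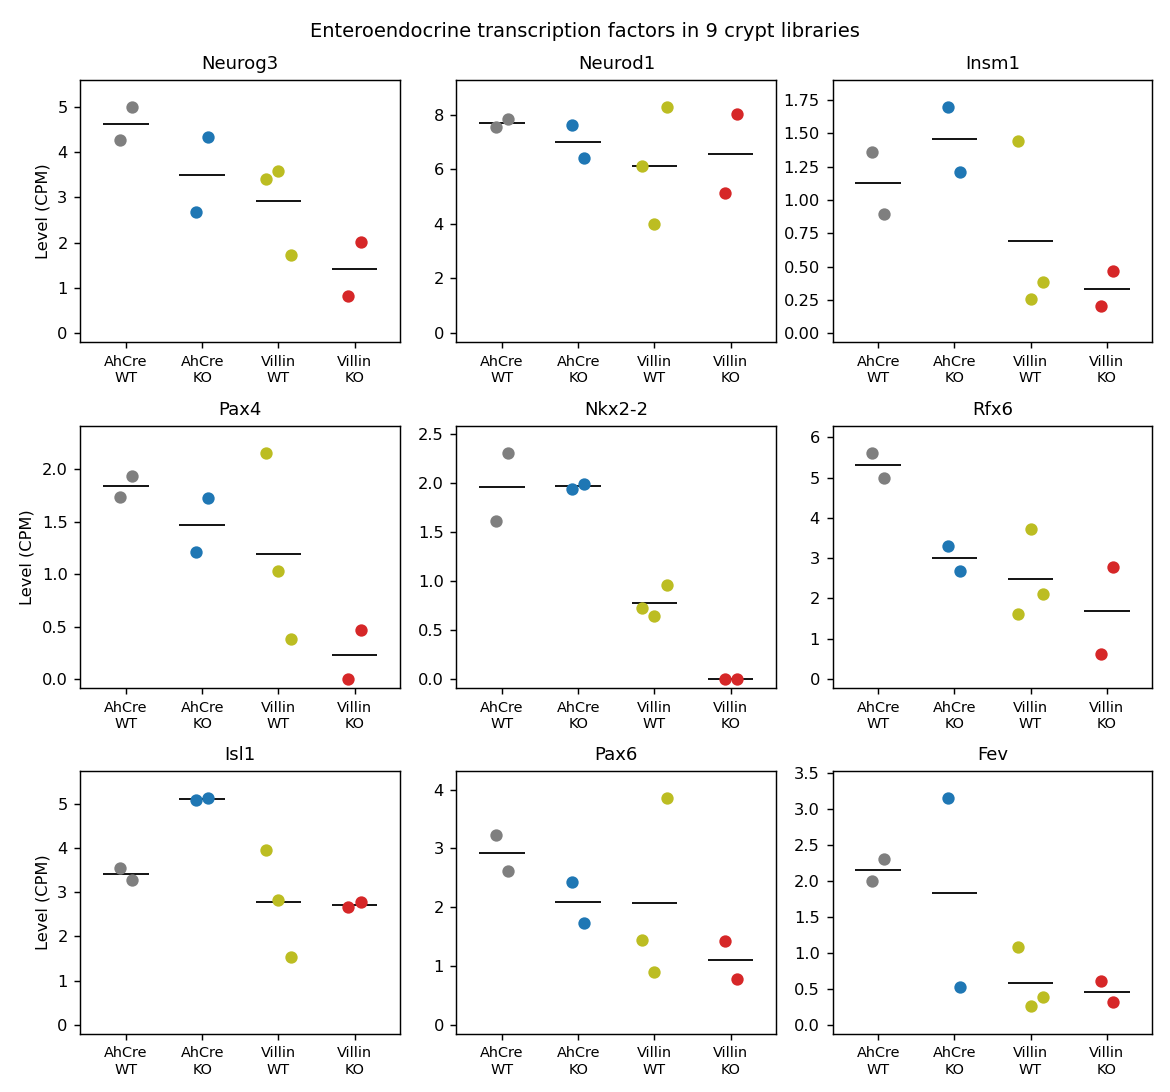
Level in CPM (vertical axis) of each of the 9 factors in every library, by driver and genotype (horizontal axis); points are libraries and bars are group means. Both Villin KO libraries are at 0 for Nkx2-2, the AhCre KO libraries lie below the controls for Rfx6 and above them for Isl1, and the Fev KO libraries of the AhCre line are far apart.

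Taking the 9 as a list, 0 passed the test in the AhCre line, where 0.00615% of all tested genes did, and 0 of 9 reached an unadjusted p under 0.05 there, where 3.53% of all genes did. DESeq2 and limma-voom called 0 of them too. The fitted value was below 0 for 6 of 9 in the AhCre line, against 50.5% of all genes, and for 8 of 9 in the Villin line, against 58.5%. It was below 0 in both lines for 5 of 9, against 27.6% of all genes. Without Villin WT replicate 1 the Villin count was 5 of 9, without Villin KO replicate 1 it was 6 of 9, and in a fit of the Villin libraries alone it was 2 of the 4 that could be tested. With the size factors of DESeq2 the counts were 7 of 9 in each line, since Nkx2-2 in the AhCre line and Isl1 in the Villin line changed sign. The median log2 fold change of the 9 was -0.22 in the AhCre line (all genes -0.0048) and -0.89 in the Villin line (all genes -0.18). With the DESeq2 size factors the Villin medians were -0.78 for the 9 and -0.08 for all genes. Without Villin KO replicate 1 the Villin median of the 9 was -0.53, and without KO replicate 2 it was -1.65. In the fit of the Villin libraries alone the median of the 4 tested members was -0.15 (all genes 0.01).

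Seen library by library, KO lay below every control for 3 of 9 in the AhCre line, Pax4, Pax6 and Rfx6, where 25.1% of all genes did so. KO lay above every control for 1 of 9, Isl1, where 23.4% of all genes did. In the Villin line KO lay below every control for 1 of 9, Nkx2-2, against 19.8% of all genes, and above for 0 of 9, against 14.5%. None of the 9 was lower without overlap in both lines, against 4.12% of all genes. These shares are near or below the background. Averaged over both lines, none of the 9 passed (1.17% of all genes did), and 1, Nkx2-2, had an unadjusted p under 0.05 (13.9% of all genes). The lowest such values were -2.92 for Nkx2-2 (adjusted p = 0.142), -1.24 for Pax4 (adjusted p = 0.411) and -0.71 for Neurog3 (adjusted p = 0.468). No member's KO effect passed the test of a difference between the lines, and Nkx2-2 alone had an unadjusted p under 0.05 in it (15.9% of all genes).

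**Figure D3:**
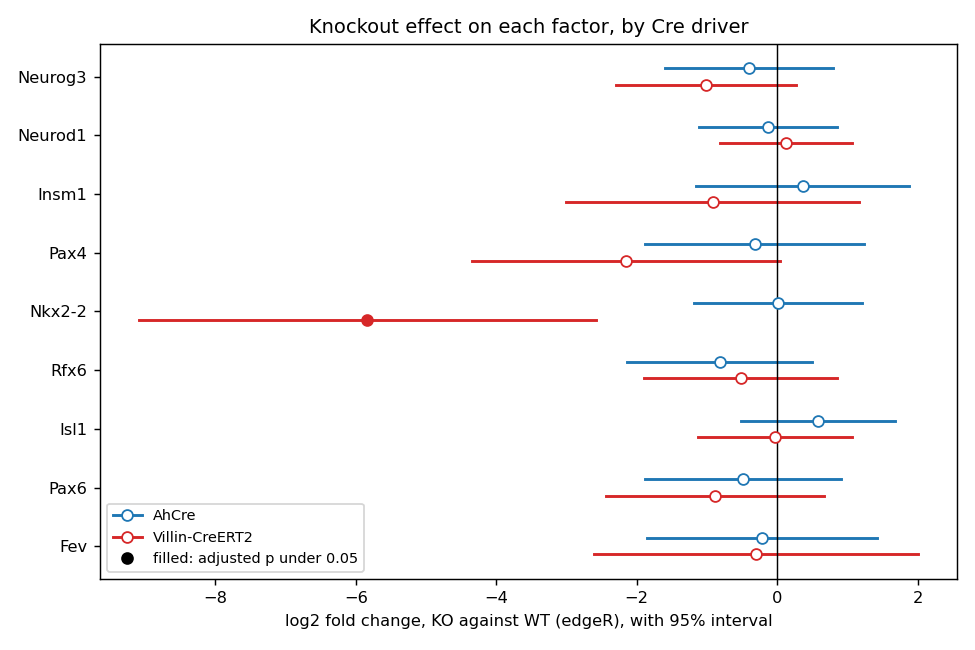
Fitted log2 fold change of KO against WT (horizontal axis) for each factor (vertical axis), with its 95% interval, in the AhCre line (blue) and the Villin-CreERT2 line (red). Among these intervals, only that of Nkx2-2 in the Villin line leaves out 0; its fitted size of -5.84 depends on how counts of 0 are treated and is not a measured fold.

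Summed over the 9, the level was 30.9 and 31.2 CPM in AhCre WT and 29.1 and 25.8 CPM in AhCre KO. Villin sums were 21.9, 17.2 and 19.7 CPM in WT and 11.5 and 17.6 CPM in KO. The AhCre KO sums were below both controls, and in the Villin line KO replicate 2 lay inside the WT range. In bulk crypts, fewer enteroendocrine cells and less RNA of these genes per cell cannot be told apart.

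The products of the lineage gave no call in either knockout. In the AhCre line only 1 of 16250 tested genes passed, so the lack of a call there says little. Of 22 genes of the secretory granule and of exocytosis, 21 were tested and 0 passed in either line or in the mean of both by edgeR. Before adjustment, 0 passed 0.05 in the AhCre line, where 3.53% of all genes did. In the Villin line 3 lower and 1 higher did so. The share of all genes at that unadjusted threshold in the Villin line is not given here. It is above the 6.21% that passed after adjustment, so nothing is read from these counts. Their summed level was 506.6 and 506.5 CPM in AhCre WT and 399.0 and 414.4 CPM in AhCre KO. Villin sums were 294.0, 146.1 and 327.9 CPM in WT and 306.7 and 397.8 CPM in KO. The sum was thus lower in AhCre KO and, in the Villin line, overlapping. The granin genes made up the AhCre difference: the mean of Chgb was 274.0 CPM in the controls and 208.1 CPM in the knockout, that of Chga 104.3 and 67.7 CPM, and neither passed the test. The median log2 fold change of the 21 tested was -0.11 in the AhCre line and -0.07 in the Villin line. The members nearest to a call in the mean of both lines were Vwa5b2 (log2 fold change -1.28, adjusted p = 0.159) and Pam, the enzyme that amidates peptide hormones (1.00, adjusted p = 0.253).

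Of 15 hormone and serotonin genes, 13 were tested and 0 passed in any of the genotype comparisons by edgeR. At an unadjusted p under 0.05 there were 0 in the AhCre line, against 3.53% of all genes. In the Villin line there were 2, both higher, Tph1 and Slc18a1. The share of all genes at that unadjusted threshold there is not given and is above the 6.21% that passed after adjustment. Nothing is read from this count. The sum was 632.7 and 619.6 CPM in AhCre WT and 535.9 and 657.1 CPM in AhCre KO. It ranged from 560.3 to 1383.8 CPM in Villin WT, and the Villin KO values of 1208.5 and 833.6 CPM lay inside that range. Ddc was its largest single part, with a mean of 192.0 of 626.1 CPM in AhCre WT and 312.3 of 1011.9 CPM in Villin WT. Slc18a1, the vesicular monoamine transporter of enterochromaffin cells, had a mean log2 fold change of 0.63 (adjusted p = 0.317). Ddc, which makes serotonin from its precursor, had a mean value of -0.46 (adjusted p = 0.357). Tph1, chosen after its values were seen, had 1.54 in the Villin line (adjusted p = 0.0975) and -0.75 in the AhCre line. The difference between the lines in its KO effect did not pass (adjusted p = 0.214).

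Upstream of the lineage, 17 of 20 genes of the Notch pathway and secretory fate were tested. None passed in the AhCre line (before adjustment, 1 lower and 1 higher passed 0.05), and 1 fell in the Villin line: the Notch ligand gene Jag2, with 9, 13 and 10 counts in WT and 1 and 0 in KO (ratio of summed counts 0.051, 95% exact interval 0.00125 to 0.305, adjusted p = 0.0311). In the AhCre line Jag2 had 64 and 55 counts in WT and 107 and 52 in KO. Before adjustment, 3 lower, Jag2 among them, and 0 higher passed 0.05 in the Villin line. Over all genes, 3.53% did so in the AhCre line. For the Villin line that share is not given and is above the 6.21% that passed after adjustment, so nothing is read from the count there. Atoh1, the gene of secretory commitment, was chosen for mention after its values were seen, and its log2 fold change was 0.54 (SE 0.34, adjusted p = 1.0) in the AhCre line and 0.12 (SE 0.31, adjusted p = 0.834) in the Villin line.

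Of 23 other regulators of the lineage, 18 were tested. None passed in the AhCre line (before adjustment, 2 lower and 1 higher passed 0.05) and 1 fell in the Villin line, the homeobox gene Mnx1, with 15, 11 and 7 counts in WT and 0 and 1 in KO (ratio of summed counts 0.0495, 95% exact interval 0.00122 to 0.295, adjusted p = 0.0338). In the AhCre line Mnx1 had 12 and 15 counts in WT and 15 and 19 in KO. Before adjustment, 5 lower, Mnx1 among them, and 2 higher passed 0.05 in the Villin line. The share of all genes that did so there is not given and is above the 6.21% that passed after adjustment. Nothing is read from these counts. Mnx1, Jag2 and Nkx2-2 each had a low count in Villin WT, at most 1 read in a Villin KO library and no lower level in AhCre KO. At such WT counts a pass as lower needs a KO count near 0, so nothing is read from this likeness. The calls of Mnx1 and Jag2 were lost with DESeq2 (adjusted p = 0.0621 and 0.0515) and with limma-voom (0.197 and 0.244). Leaving out 1 library ended the Mnx1 call in 6 of 9 cases, with an adjusted p of up to 0.14. It ended the Jag2 call in 8 of 9 cases, with an adjusted p of up to 0.0772.

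Markers of other cell types moved between the same libraries, and their part in the results above was not tested. Of 25 tuft cell genes, 24 rose in the Villin line and 0 passed in the AhCre line. Before adjustment, 24 were higher in the AhCre line with p under 0.05, which 3.53% of all genes had in either direction. Their summed level was 595.4 and 565.7 CPM in AhCre WT and 2331.0 and 2266.1 CPM in AhCre KO. It was 426.5 to 568.6 CPM in Villin WT and 8582.2 and 1602.1 CPM in Villin KO. Villin KO replicate 1 had both the highest tuft sum and the lowest sum of the 9 factors. Stromal genes summed to 181.4 CPM in each AhCre WT library and 84.6 and 86.9 CPM in AhCre KO, and to 195.6, 29.8 and 32.2 CPM in Villin WT and 203.0 and 223.5 CPM in Villin KO, where 2 of 11 tested rose. Leukocyte genes summed to 247.1 to 259.7 CPM in the AhCre libraries. In the Villin line they summed to 48.9 to 534.5 CPM in WT and 425.9 and 1064.7 CPM in KO. Of 12 tested, 1 rose there, Kit. The mean of Kit was also higher in AhCre KO (83.7 CPM) than in AhCre WT (30.5 CPM). Crypt epithelial genes summed to between 13915.7 and 25719.6 CPM over all 9 libraries. In the Villin line 2 of 20 rose, Clca1 and Krt18. Another 2 fell, Lgr5 of crypt base stem cells and the proliferation gene Mki67. Over all tested genes, 6.21% passed in the Villin line in either direction.

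Enteric neurons also express Isl1, and markers of these neurons were low throughout. Over 14 neuronal genes the summed level was 10.1 CPM in each AhCre WT library, 8.33 and 9.11 CPM in AhCre KO, 2.12 to 6.03 CPM in Villin WT and 5.74 and 6.79 CPM in Villin KO. Single genes of the list went in different directions. Nos1, the neuronal nitric oxide synthase gene, had 36 counts over the AhCre WT libraries, 14 in AhCre KO, 7 in Villin WT and 0 in Villin KO (adjusted p = 0.361 for the mean of both lines). Ret, a receptor gene of enteric neurons and their precursors, had 113, 39, 15 and 8 counts in the same order (adjusted p = 0.499). Prph, a neuronal intermediate filament gene chosen after its values were seen, had 1, 11, 6 and 24. Of the 14, 4 were tested and 0 passed.

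**Figure D4:**
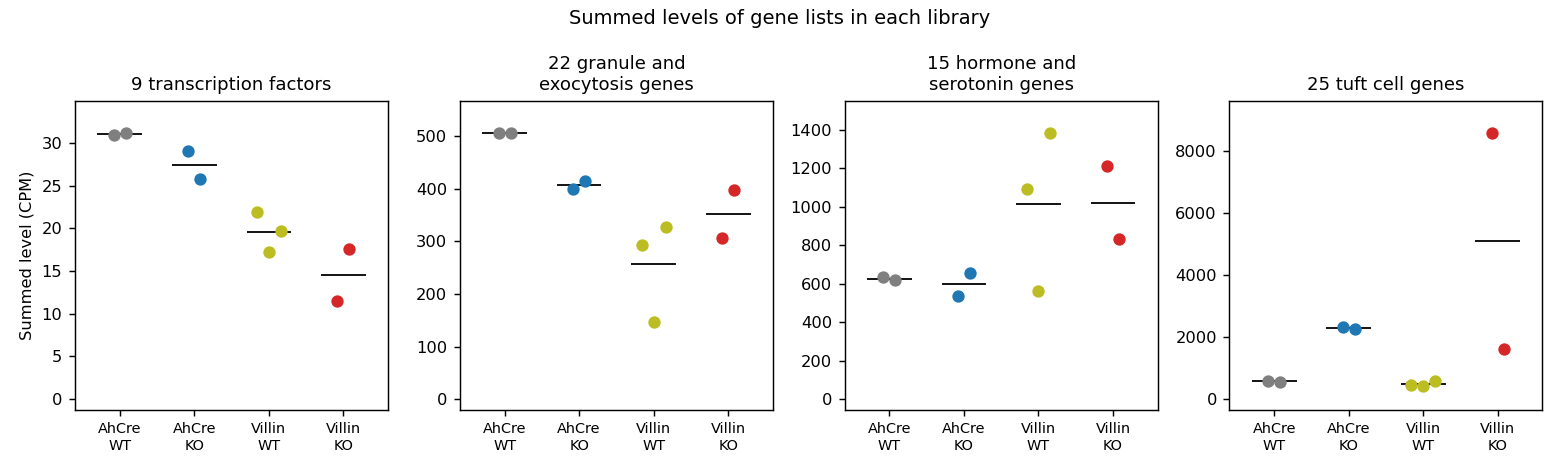
Summed level in CPM (vertical axes, each with its own scale) of the 9 factors and of 3 gene lists in every library, by driver and genotype (horizontal axis); points are libraries and bars are group means. The tuft cell sum reaches 8582.2 CPM in 1 Villin KO library, while the 9 factors sum to between 11.5 and 31.2 CPM.

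Over the 9 libraries, the genes whose level followed the mean of the 9 factors most closely were Atp2c2 (Pearson r = 0.989), Tspan18 (0.986), Ano8 (0.981), Lipt2 (0.976) and Rab36 (0.976). For Neurog3 alone they were Pou6f1 (0.961), Bcl11a (0.959) and Brd3 (0.958), and for Neurod1 alone Msn (0.974), Cd79a (0.972) and Adcy7 (0.957). These are descriptions over 9 libraries that share the gap in depth and level between the lines, picked as the highest of all tested genes. The average level of the 9 factors, as a mean of z-scores, ran from 0.40 to 0.78 in the AhCre libraries and from -1.29 to 0.16 in the Villin libraries. Because the low-count filter favoured members that were higher in AhCre, nothing is read from this gap.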

How the data were processed

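The 9 deposited files hold raw read counts per gene, 1 file a library; per the submitters' processing notes the tools were STAR 2.7, featureCounts and DESeq2 1.20 with builds mm10 and GRCm38, and strand settings were not given in the sources used here. Counts of all 9 libraries were fitted together with edgeR 4.0.16 (R 4.3.3; TMM scaling, filterByExpr over 4 groups, 1 mean a group, quasi-likelihood F test, Benjamini-Hochberg over 16250 of 55341 genes, call at adjusted p under 0.05). The code was tested on simulated data. CPM used TMM-scaled library sizes. Exon lengths, positions and overlaps came from the annotation of GRCm38, which matched all 55341 genes. Alternatives used DESeq2 1.42.0, limma 3.58.1, other filters and scalings, 1 driver at a time, replicate blocks and each library left out. The 9 genes and all lists were chosen with earlier results of these data known. Named genes were the 9, Pcgf6 and the genes of most similar level. Of each list up to 4 called genes, or else the 2 of smallest p, were to be named. For the tuft and stromal lists counts of called genes are given without names. Genes overlapping a member were named outside this rule. So were Epcam, Chga, Chgb, Prph, Atoh1 and Tph1, after their values were seen. No 2 replicates agreed within counting noise (chi-square per degree of freedom 8.21 to 66.8).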

Additional observations from a re-analysis of the deposited data

How the results depend on the processing

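For the 9 factors over 4 comparisons (the KO effect in each line, their mean and their difference), alternatives that kept all libraries gave 261 fitted values, of which 237 kept direction and side of the threshold, 20 reversed and 4 lost the call, all 4 of them Nkx2-2 in the Villin line. Leaving out 1 library gave 324 values, of which 288 kept both, 27 reversed and 9 lost the call. The Villin call of Nkx2-2 (1 of the 9 called) became 0 with DESeq2, limma-voom, 1 driver fitted alone (where it had too few reads), the replicate block (adjusted p = 0.119) and each library left out (0 to 0). It held with DESeq2 size factors (0.0458), without a low-count filter (0.0448) and with a filter of 1 CPM in 4 libraries (0.0394). Values that reversed were all uncalled, and the cause was not tested. Nkx2-2 in the AhCre line was -0.01 with DESeq2 size factors and with DESeq2 and -0.0014 with the 1 CPM filter. Isl1 in the Villin line was 0.07 with DESeq2 size factors and with DESeq2, 0.04 with limma-voom and 0.10 with 1 driver alone. The Neurod1 mean was 0.04 with DESeq2 size factors and with DESeq2, 0.02 without a filter and 0.0006 with limma-voom. The Fev difference between lines was -0.05 with DESeq2 size factors and with DESeq2 and -0.44 with limma-voom.

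With 1 library left out, reversing values ranged as follows: Fev from -2.02 to 0.55 (AhCre), -0.80 to 0.50 (Villin), -1.16 to 0.14 (mean) and -1.71 to 0.86 (difference); Insm1 from -1.65 to 0.15 (Villin) and -0.64 to 0.26 (mean); Isl1 from -0.30 to 0.29 (Villin). Neurod1 ran from -0.25 to 0.42 (Villin), -0.19 to 0.15 (mean) and -0.54 to 0.12 (difference), Nkx2-2 from -0.23 to 0.28 (AhCre), Pax6 from -0.40 to 0.86 (difference) and Rfx6 from -2.03 to 0.15 (Villin) and -0.96 to 1.21 (difference).

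Genes called over the whole table numbered 1 in the AhCre line, 137 without a filter, 74 with DESeq2, 911 with limma-voom, 1046 with 1 driver alone and 1 to 64 with 1 library left out. In the Villin line 1009 became 1591, 1723, 138 and 259 in that order and 73 (without KO replicate 1) to 1949 (without KO replicate 2). Of these 1009 calls 541 were higher and 468 lower, and with DESeq2 size factors 704 and 388. For the mean, 190 became 538 without a filter, 438 with DESeq2 and 2 to 757 with 1 library left out. For the difference, 12 became 340 without a filter, 356 with DESeq2, 144 with limma-voom and 0 to 415, and between the WT groups 1231 became 2290, 2214, 3860 and 8 to 3030.

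Whether the replicate numbers pair the libraries was not settled. Same-numbered libraries had deviations correlated at -0.11 in the AhCre line and 0.06 and -0.22 in the Villin line. Libraries of different number ran from -0.26 to 0.26. In a group of 2 libraries the deviations mirror each other, so these values cannot decide it. With the replicate block 300 genes were called in the Villin line and 0 in the difference. The block also gave a Neurod1 mean of 0.13, a Pax6 difference of -0.39 and a Fev difference of -0.15. A block with crossed numbers in the AhCre line, added after seeing the data, called 46 genes in the Villin line, 48 in the mean, 0 in the difference and 0 of the 9, and gave Neurod1 0.13, Pax6 -0.39 and Fev -0.16 there. At 0 to 14 counts a group, as for Nkx2-2 and Insm1 in the Villin line, depth limits any statement to large differences.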
